A study of Mus musculus with 8 samples.

Results

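The cation-chloride cotransporters described here are Slc12a2, Slc12a4, Slc12a5 and Slc12a7, 4 of the 24343 genes in the deposited expression table, chosen by gene symbol and read in all 8 libraries. The libraries were prepared from RNA of whole brains of 3 C57BL/6NCrl mice aged 56 to 62 days, of which mouse 1 and mouse 2 gave 3 libraries each and mouse 3 gave 2. The labels name neither a transgene nor a treatment, and do not give the sex of individual mice. All mice therefore formed a single condition, and the comparisons below are between genes and between individual mice. Levels are FPKM, fragments scaled for transcript length and library depth, summed over the transcripts of a gene, averaged over the libraries of a mouse and then over the mice.

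Cation-chloride cotransporters move chloride across the cell membrane together with potassium, or with sodium and potassium, in an electrically neutral cycle. The product of Slc12a2, NKCC1, uses the inward sodium gradient to load cells with chloride, whereas the products of Slc12a4 (KCC1), Slc12a5 (KCC2) and Slc12a7 (KCC4) use the outward potassium gradient to extrude it. KCC2 is found in central neurons, where it keeps intracellular chloride low so that GABA and glycine hyperpolarize the cell, and KCC1 and KCC4 are known mainly for volume regulation in many tissues.

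In the adult brain, Slc12a5 was the highest of the 4 genes, at 63.9 ± 10.4 FPKM (mean ± SD between mice, n = 3), followed by Slc12a2 at 17.9 ± 1.29, Slc12a4 at 5.13 ± 0.697 and Slc12a7 at 0.969 ± 0.0705. Slc12a5 ranked 964th by level among all 24343 genes, Slc12a2 ranked 3731st, Slc12a4 8695th and Slc12a7 13060th. The ranges of the 4 genes over the 8 libraries did not overlap, so that the order Slc12a5, Slc12a2, Slc12a4, Slc12a7 held in 8 of 8 libraries and 3 of 3 mice. An exact paired test over 3 mice cannot give a p below 0.25, and the order is therefore given as a description. Because the tissue is bulk, fewer cells of a type and less RNA per cell cannot be told apart in any of these values.

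The measured transcript of Slc12a5, NM_020333, lies on chromosome 2 of mm10 from position 164967988 to 164999731 on the plus strand, with 26 exons in the matched GENCODE transcript. Slc12a2, as NM_009194, lies on chromosome 18 from 57878678 to 57946821 on the plus strand, with 27 exons. Slc12a4 lies on chromosome 8 from 105943590 to 105966115 on the minus strand, and Slc12a7, as NM_011390, on chromosome 13 from 73763697 to 73816742 on the plus strand, each with 24 exons in the matched transcript. Slc12a2, Slc12a5 and Slc12a7 are each represented by a single transcript in the table, with lengths of 6520, 6023 and 5130 bases, and Slc12a4 by 3, the main one with 3826 bases. All are longer than the median of the tested genes, 2851.6 bases.

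The coding sequences of the 3 potassium-chloride cotransporter genes described were 73.0% to 74.8% identical to one another over their aligned bases, and that of Slc12a2 was 58.0% to 60.9% identical to them. The longest run of bases shared exactly between transcripts of any 2 of the 4 genes was 28 bases, found between Slc12a4 and Slc12a5 and between Slc12a4 and Slc12a7. Of the exon bases of Slc12a4, 361 of 3755 are overlapped by Gm16156, an antisense gene on the opposite strand. The strand setting of the counting is not given in the sources used here, and reads of Slc12a4 and Gm16156 cannot be told apart over those bases.

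Slc12a5 has 2 start sites in RefSeq, which give the amino-terminal variants of KCC2, and only the downstream one is the start of the transcript measured here. The promoter windows of both starts are shown for that reason, and that of the measured Slc12a7 start because it holds the same motif as the measured Slc12a5 start. Each window covers 250 bases before to 50 bases after a start (RefSeq, GRCm38.p6, plus strand). Capitals mark the E-box CACGTG, a motif bound by basic helix-loop-helix factors.
Slc12a5 upstream start, chr2:164960596-164960895: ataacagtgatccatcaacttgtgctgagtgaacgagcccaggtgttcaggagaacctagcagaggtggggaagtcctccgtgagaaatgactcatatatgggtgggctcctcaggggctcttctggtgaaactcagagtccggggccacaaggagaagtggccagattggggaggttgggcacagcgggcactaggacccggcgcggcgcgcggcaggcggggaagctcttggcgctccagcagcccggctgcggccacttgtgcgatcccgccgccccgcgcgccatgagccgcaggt
Slc12a5 measured start, chr2:164967738-164968037: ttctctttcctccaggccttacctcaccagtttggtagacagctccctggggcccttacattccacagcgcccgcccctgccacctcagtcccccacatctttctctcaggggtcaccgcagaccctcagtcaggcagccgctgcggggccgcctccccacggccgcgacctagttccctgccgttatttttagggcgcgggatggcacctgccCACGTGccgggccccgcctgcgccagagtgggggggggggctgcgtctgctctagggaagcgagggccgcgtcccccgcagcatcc
Slc12a7 measured start, chr13:73763447-73763746: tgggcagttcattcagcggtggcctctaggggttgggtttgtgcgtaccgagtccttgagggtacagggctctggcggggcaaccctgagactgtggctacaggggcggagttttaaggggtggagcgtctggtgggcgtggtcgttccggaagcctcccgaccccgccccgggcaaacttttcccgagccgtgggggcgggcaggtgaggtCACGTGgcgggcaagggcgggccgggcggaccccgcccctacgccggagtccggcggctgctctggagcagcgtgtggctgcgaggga

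The window of the measured Slc12a5 start held 1 E-box, beginning 36 bases before the start, and the window of the upstream start held none. The CACGTG letters, which read the same on both strands, occurred in 7.15% of the 32851 promoter windows of this length. The window of the measured Slc12a7 start also held 1 E-box, beginning 38 bases before the start, together with 6 copies of the GC box GGGCGG counted on both strands. RefSeq gives Slc12a7 a further start, whose window from 73763410 to 73763709 overlaps this one and holds the same E-box. At least 1 GC box was present in 35.7% of all windows, and the share with 6 copies was not computed. Each of the Slc12a5 windows held 1 GC box. The Slc12a4 window, on chromosome 8 from 105966066 to 105966365, held 6 of them and no E-box. TATAAA, found in 13.6% of windows, was absent from these windows, as was the longer EGR motif GCGGGGGCG, found in 2.91%. Their GC content was 63.7% for the upstream and 68.3% for the measured Slc12a5 start, 69.3% for the measured Slc12a7 start and 65.0% for Slc12a4, against a median of 52.7% over all windows. These matches describe the letters of the windows and are no measure of binding.

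The defining markers of brain cells were present in every library. Neuronal markers (Snap25, Syt1, Stmn2 and Rbfox3) summed to 1310 to 1640 FPKM per library, astrocyte markers (Aqp4, Aldoc, Gja1 and Slc1a3) to 526 to 956 and oligodendrocyte markers (Mbp, Mog and Mag) to 1340 to 3630. Libraries had 1.31 to 2.02 gigabases on transcripts (median 1.76), estimated as deposited coverage multiplied by transcript length. The libraries of mouse 3 stood apart from the others. Their deviations from the mean of all libraries fell with transcript length (Spearman's rho across genes -0.36 and -0.57), whereas those of mice 1 and 2 rose with it (0.18 to 0.50), and their total FPKM was 384885 and 409889 against 295541 to 345572.

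Slc12a5, the neuronal chloride exporter, was measured at 70.9, 69.7 and 75.1 FPKM in libraries 1, 2 and 3 of mouse 1. In mouse 2 it was measured at 59.0, 69.9 and 74.2 FPKM, and in mouse 3 at 61.5 and 42.7 FPKM. Library 2 of mouse 3 was the lowest of the 8 and library 1 of mouse 2 the next lowest, and the ranges of mouse 3 and of mice 1 and 2 overlapped. The deposited confidence bounds of Slc12a5 were within 2.37% to 3.34% of its value in each library. The bounds of the lowest library, 41.2 to 44.1 FPKM, lay wholly below those of the next lowest, 57.1 to 60.9 FPKM. Within mouse 1, the bounds of libraries 1 and 2 overlapped, at 69.0 to 72.8 and 67.8 to 71.5 FPKM. Those of library 3 of mouse 1, 73.3 to 76.9 FPKM, lay wholly above both. In mouse 2 and in mouse 3, no libraries of the same mouse had overlapping bounds. Separate bounds were thus also found between libraries of the same mouse.

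Slc12a2, the chloride importer, varied little between mice relative to its level. It was measured at 18.5 FPKM in each of the 3 libraries of mouse 1, at 20.3, 18.1 and 17.8 FPKM in those of mouse 2, and at 17.7 and 15.1 FPKM in those of mouse 3. Both libraries of mouse 3 lay below the other 6, the higher of them by a margin well within its deposited bounds of 16.8 to 18.5 FPKM. The share of all tested genes with such a gap was not computed. By the limma contrast described with the tests, 17.5% of them were called lower in mouse 3 and 20.3% higher. The coefficient of variation of Slc12a2 between mice was 7.24%, and 25.5% of the tested genes varied less. That of Slc12a7 was close to it, at 7.27%. For Slc12a5 it was 16.3%, with 65.2% of genes varying less, and for Slc12a4 13.6%, with 55.1% varying less, where the median over tested genes was 12.3%.

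Slc12a4, the widely expressed KCC1, went the other way. Its summed level was 5.28, 4.80 and 5.08 FPKM in mouse 1, 4.06, 4.76 and 4.62 FPKM in mouse 2, and 6.21 and 5.52 FPKM in mouse 3. Both libraries of mouse 3 exceeded all 6 libraries of mice 1 and 2. The share of all tested genes with such a gap between the libraries of mouse 3 and the others, in either direction, was not computed. By another measure, the limma contrast described with the tests, 20.3% of them were called higher in mouse 3 and 17.5% lower. Slc12a7, which encodes KCC4, was near the lower limit of the tested range, at 1.03, 1.03 and 0.895 FPKM in mouse 1, 1.09, 0.831 and 1.17 FPKM in mouse 2, and 1.04 and 0.747 FPKM in mouse 3. The deposited bounds of Slc12a7 were 21.7% to 27.5% of its value on either side, and the ranges of the 3 mice overlapped.

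**Figure D1:**
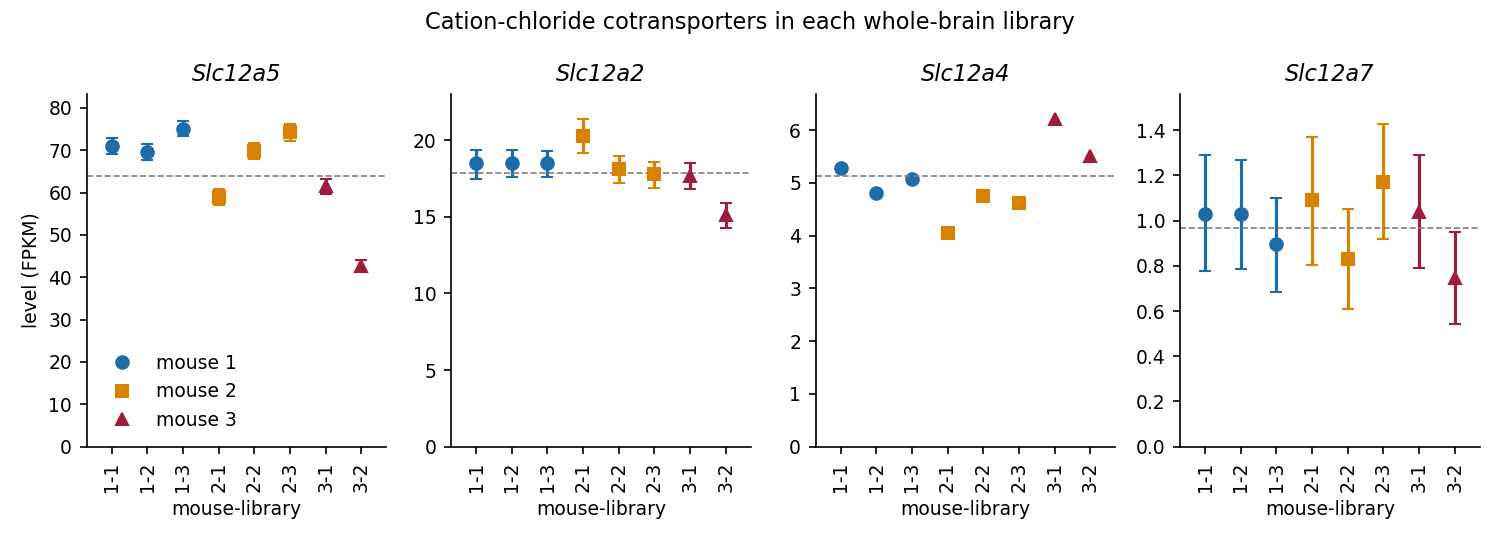
Level of each cotransporter gene in FPKM (vertical axes start at 0) in the 8 libraries, named by mouse and library number on the horizontal axis. Bars are the deposited confidence bounds (none for Slc12a4, whose 3 transcripts were summed) and the dashed line is the mean over mice. Library 2 of mouse 3 is the lowest for Slc12a5 at 42.7 FPKM, and both libraries of mouse 3 are the highest for Slc12a4, at 6.21 and 5.52 FPKM.

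The level ratios between neighbours in this order were similar for the first and second steps and larger for the third. Slc12a5 exceeded Slc12a2 by 3.58-fold as a ratio of mean FPKM (2.83 to 4.18 in single libraries), Slc12a2 exceeded Slc12a4 by 3.48-fold (2.73 to 5.0) and Slc12a4 exceeded Slc12a7 by 5.29-fold (3.74 to 7.40). From the first to the last the ratio was 65.9-fold (54.3 to 84.1). The 4 genes together summed to 87.8 ± 11.2 FPKM, of which Slc12a5 made up 72.3% ± 3.0, Slc12a2 20.6% ± 1.41, Slc12a4 6.01% ± 1.66 and Slc12a7 1.11% ± 0.0814 (mean ± SD between mice, n = 3). The gene for the neuronal exporter thus made up more than any other of the set in each library, its share ranging from 66.6% to 75.9%.

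Of the other Slc12 genes, 4 are set beside the described ones, and 1 of them was close to a described gene. Slc12a9, whose product is an orphan member of the family, was measured at 5.51 ± 0.728 FPKM and exceeded Slc12a4 in 6 of 8 libraries, with ratios of 0.688 to 1.37 and overlapping ranges. It lay below Slc12a2 in 8 of 8 libraries. Slc12a8 was at 0.537 ± 0.0644 FPKM, below Slc12a7 in 8 of 8 libraries. The kidney transporters Slc12a1 and Slc12a3 were close to 0 throughout, at no more than 0.0469 and 0.0729 FPKM, and each was listed at 0 in 2 libraries. Of the summed FPKM of these 8 genes, Slc12a5 made up 67.6% ± 2.88, Slc12a2 19.2% ± 1.31, Slc12a9 5.85% ± 0.161 and Slc12a4 5.61% ± 1.54 (mean ± SD between mice, n = 3).

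**Figure D2:**
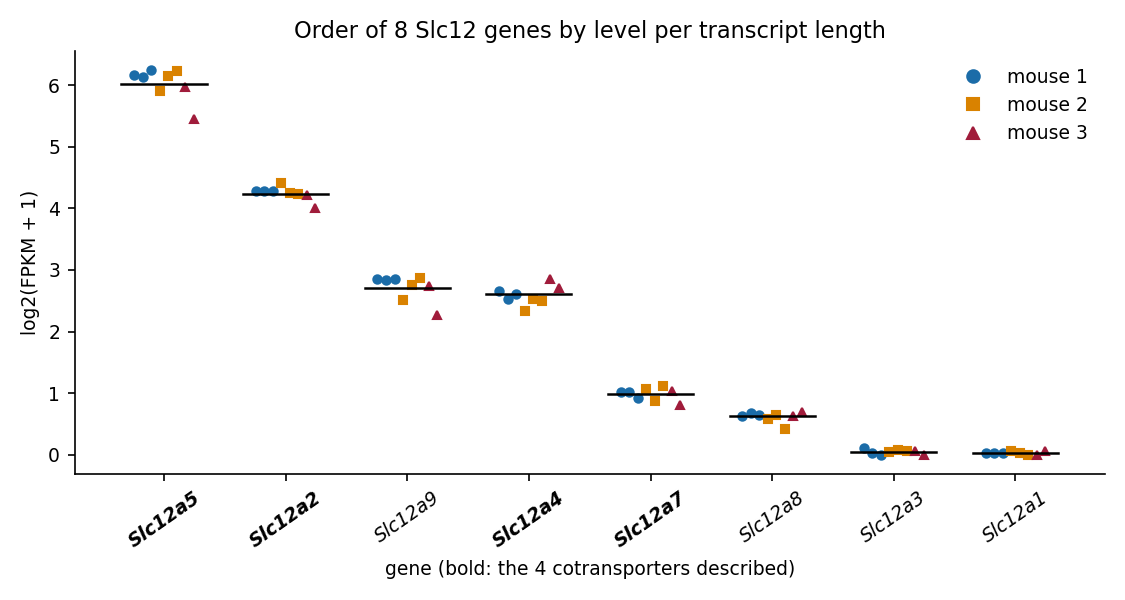
Level of 8 Slc12 genes as log2(FPKM + 1), ordered by mean level on the horizontal axis; points are the 8 libraries and lines the mean over mice. Slc12a5 stands above the other 7 shown (mean 63.9 FPKM), and Slc12a9 and Slc12a4 overlap (5.51 and 5.13 FPKM).

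Slc12a4 was the only described gene with more than 1 transcript in the table. The transcript NM_009195 made up 92.7% ± 7.35 of its FPKM (mean ± SD between mice, n = 3), and all of it, to 3 significant digits, in 5 of 8 libraries. The exception with the largest departure was library 2 of mouse 3, where NM_009195 was at 3.90 FPKM, or 70.6%, and NM_001253804 at 1.63 FPKM, or 29.4%, with deposited bounds of 1.16 to 2.09 FPKM. In library 2 of mouse 1 the shares were 82.5% for NM_009195, 10.7% for the non-coding NR_045594 and 6.82% for NM_001253804. The 3 transcripts share their first and last position and have lengths of 3826, 3832 and 3809 bases, so their division by the authors' estimation is uncertain, and the sum was used for all comparisons. GENCODE lists protein-coding transcripts of Slc12a5 with 4 different pairs of start and end positions. Only 1 transcript of Slc12a5 was measured, and the share of transcripts from its upstream start was not analysed here.

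The 3 mice were compared on the log2(FPKM + 1) scale by the moderated F-test of limma over 12990 genes whose mean reached 1 FPKM, which took in 3 of the 4 cotransporter genes and left out Slc12a7. Between mice, 25.5% of all tested genes passed an adjusted p of 0.05, and 0 of the 3 cotransporter genes did, with adjusted p of 0.0702 for Slc12a4, 0.0970 for Slc12a5 and 0.291 for Slc12a2. At an unadjusted p below 0.05, 2 of the 3 passed the F-test, as did 40.8% of all tested genes. Since earlier results of these data had shown mouse 3 apart, mouse 3 was also set against the mean of mice 1 and 2 in the same fit. By this contrast 20.3% of all tested genes were higher and 17.5% lower in mouse 3. At an unadjusted p below 0.05, these shares were 26.2% and 22.7%. Libraries of 1 mouse are the only replicates, and p-values measure the spread between such libraries, which may be technical. The p-values of the contrast do not account for choosing mouse 3 from these same data.

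By this contrast, Slc12a5 was called lower in mouse 3 and Slc12a4 higher. The difference of Slc12a5 was -0.43 ± 0.14 on the log2(FPKM + 1) scale (± SE, adjusted p = 0.0386, limma), and 7.49% of tested genes had a lower value. The difference of Slc12a4 was 0.25 ± 0.0832 (adjusted p = 0.0418), and 73.5% of tested genes had a lower value. Slc12a2 differed by -0.18 ± 0.086, which did not pass (adjusted p = 0.134). In a fit without the filter on low values, Slc12a7 differed by -0.09 (adjusted p = 0.547). With 3 genes tested, 1 call in each direction was not read as a departure from these background shares.

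Neither call was kept in every fit that left out 1 library. The size of the Slc12a5 difference moved most with the mouse 3 library left out. Without library 2 of mouse 3 the difference of Slc12a5 was -0.18 (adjusted p = 0.381), and without library 1 of mouse 3 it was -0.69 (adjusted p = 0.00742). Over all 8 fits that each left out 1 library, Slc12a5 passed in 2, Slc12a4 in 1 and Slc12a2 in 1, with unchanged signs. The difference of Slc12a4 ranged from 0.18 to 0.33 in these fits. When only its highest transcript was used, Slc12a4 differed by 0.09 (adjusted p = 0.676).

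The scaling of the libraries moved these values as well. With every library scaled to the same total, as TPM, the share of each transcript in the library, 7.89% of tested genes were higher and 44.3% lower in mouse 3, and the median difference of all tested genes shifted from 0.02 to -0.26. On that scale the difference was -0.74 for Slc12a5 (adjusted p = 0.00395), -0.48 for Slc12a2 (adjusted p = 0.0123) and 0.0023 for Slc12a4 (adjusted p = 0.985). With the smooth trend of each library's deviations with transcript length removed, 16.3% of genes were higher and 15.7% lower. Slc12a4 then differed by 0.33 (adjusted p = 0.00937), Slc12a5 by -0.25 (adjusted p = 0.103) and Slc12a2 by 0.02 (adjusted p = 0.828). Slc12a5 thus lay below and Slc12a4 above the median of all genes under each of the 3 scalings, whereas Slc12a2 lay below it under FPKM and TPM and above it once the length trend was removed.

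**Figure D3:**
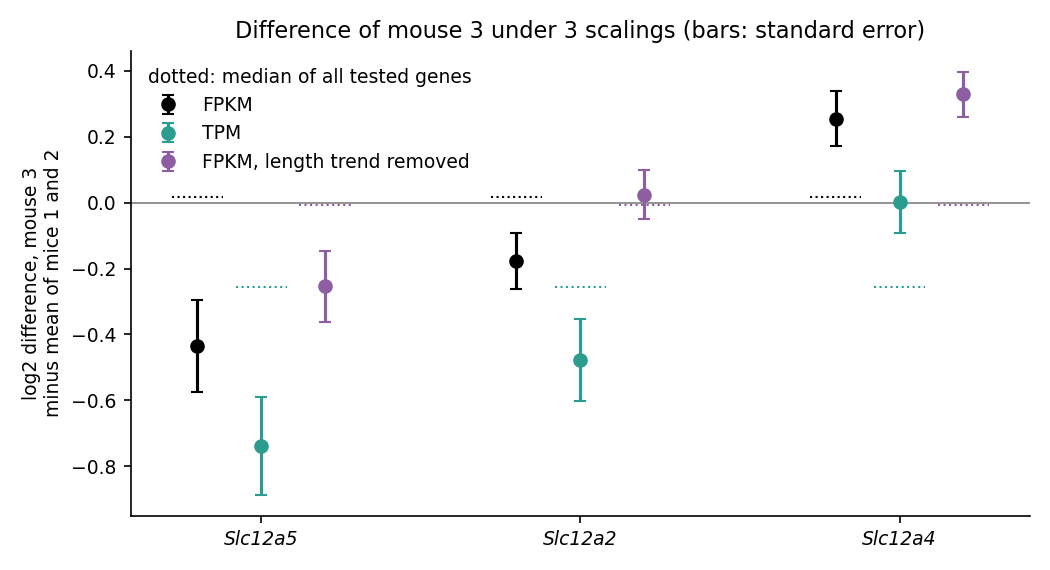
Difference of mouse 3 from the mean of mice 1 and 2 on the log2 scale (vertical axis) for the 3 tested cotransporter genes under 3 scalings; bars are standard errors and dotted lines the median of all tested genes on that scale. Slc12a5 lies below and Slc12a4 above the median in each (-0.43 and 0.25 on the FPKM scale), and Slc12a2 crosses it.

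Markers of several cell types moved with mouse 3 in the same libraries. Astrocyte markers summed to 868 to 956 FPKM in mouse 3 against 526 to 567 in mice 1 and 2, and 4 of 4 were called higher. Oligodendrocyte markers summed to 2970 to 3630 against 1340 to 1470 FPKM (2 of 3 higher) and neuronal markers to 1310 to 1460 against 1520 to 1640 FPKM (2 of 4 lower, 0 higher). Mbp made up most of the oligodendrocyte sum, at 1290, 1320 and 3170 FPKM in mice 1, 2 and 3. Mog was at 45.4, 41.4 and 57.4 FPKM in these mice, and Mag, which was not called on the FPKM scale, at 68.0, 61.5 and 77.1 FPKM. On the FPKM scale 20.3% of all tested genes were higher and 17.5% lower. Blood markers summed to 801 to 897 against 530 to 659 FPKM (1 of 5 higher) and endothelial markers to 86.6 to 93.5 against 40.5 to 61.8 FPKM (2 of 4 higher). Microglial markers summed to 51.5 to 52.5 against 44.2 to 49.9 FPKM (1 of 4 higher), and choroid plexus markers to 435 to 566 against 322 to 552 FPKM (1 of 5 lower). Under TPM, with 7.89% of all tested genes higher and 44.3% lower, 2 of 4 astrocyte, 1 of 3 oligodendrocyte, 1 of 4 endothelial and 1 of 5 blood markers were called higher, 0 of 4 microglial ones passed, and 4 of 4 neuronal and 2 of 5 choroid plexus markers were called lower. With the length trend removed, 16.3% of all tested genes were higher and 15.7% lower. There 4 of 4 astrocyte, 2 of 3 oligodendrocyte (Mbp and Mag), 2 of 4 endothelial and 1 of 4 microglial markers were higher. Called lower were 2 of 4 neuronal and 1 of 5 choroid plexus markers. Of the 5 blood markers, 1 was higher and 1 lower, the latter Hba-a1 (-0.47, adjusted p = 0.00269, limma). Pituitary hormone genes summed to no more than 3.17 FPKM in any library, and 4 of 5 were listed at 0 in at least 1 library. The part of cell makeup and of the length trend in the differences of Slc12a5 and Slc12a4 was not tested.

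Ratios within a library do not depend on a factor common to all its genes, as in TPM, but can move when the length trend is removed. The ratio of Slc12a5 to Slc12a2, exporter over importer, was 3.84, 3.76 and 4.07 in the libraries of mouse 1, 2.91, 3.86 and 4.18 in mouse 2, and 3.48 and 2.83 in mouse 3. The ranges of mice 2 and 3 overlapped, and the mean was 3.56 ± 0.374 (SD, n = 3 mice). An exact permutation F-test of the log2 ratio over 280 groupings of the libraries by mouse gave a p of 0.293. The smallest possible p was 0.00357. Without library 1 of mouse 2, the ratio was 3.69 and the exact p 0.0476. With the length trend removed, the exact p was 0.264. The values are from bulk tissue and do not show whether both genes are expressed in the same cells.

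Both ratios to Slc12a4 were lowest in mouse 3; they were added after the levels had been seen. The ratio of Slc12a5 to Slc12a4 was 13.4, 14.5 and 14.8 in mouse 1, 14.5, 14.7 and 16.1 in mouse 2, and 9.90 and 7.73 in mouse 3. The ratio of Slc12a2 to Slc12a4 was 3.5, 3.86 and 3.64 in mouse 1, 5.0, 3.8 and 3.84 in mouse 2, and 2.84 and 2.73 in mouse 3. In neither ratio did mouse 3 overlap with the other 2 mice. The exact permutation p was 0.0143 for the first and 0.0107 for the second, and 0.0215 for both after adjustment over the 3 ratios. These p-values measure the spread between libraries, and the adjustment does not account for choosing the ratios from the same values. They are therefore given as a description. The share of other gene pairs with such differences was not computed. With the length trend removed, the exact p was 0.0214 for both. When only the highest Slc12a4 transcript was used, the exact p was 0.0321 for Slc12a5 to Slc12a4 and 0.407 for Slc12a2 to Slc12a4. Leaving out single libraries gave exact p of 0.019 to 0.0762 and 0.019 to 0.1, respectively.

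**Figure D4:**
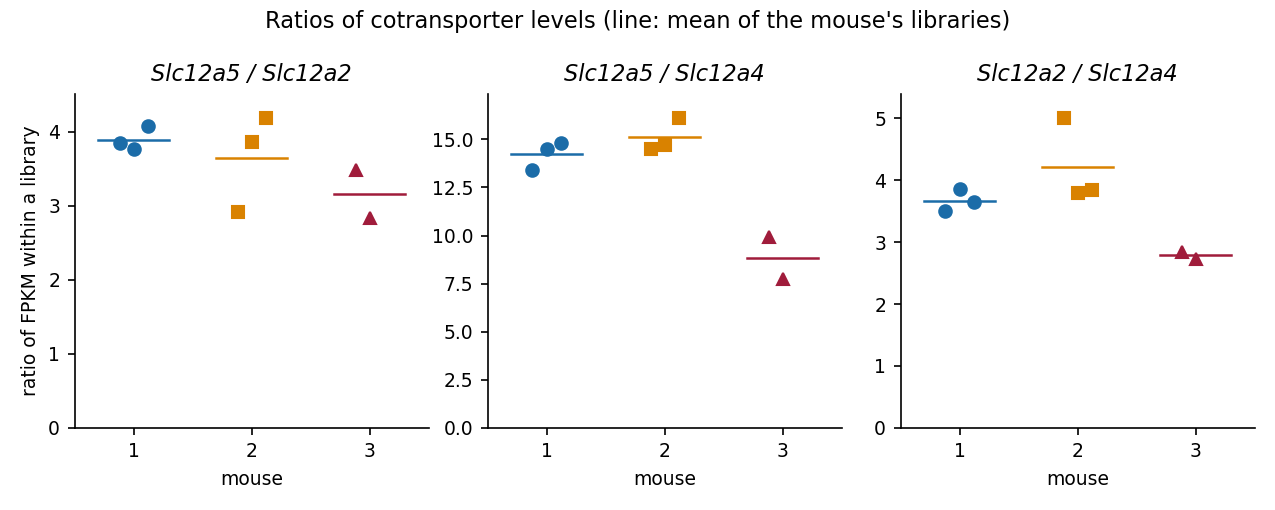
Ratio of FPKM between cotransporter genes within each library (vertical axes start at 0), by mouse; lines are the mean of the libraries of a mouse. Mouse 3 overlaps with mouse 2 for Slc12a5 to Slc12a2, and lies below mice 1 and 2 for both ratios to Slc12a4, with means of 8.81 and 2.79.

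Phosphorylation sets the activity of these transporters: WNK kinases activate the kinases SPAK (Stk39) and OSR1 (Oxsr1), which switch NKCC1 on and the potassium-chloride cotransporters off. Of 10 genes of this control, 9 were tested, of which 3 were higher, 2 lower and 4 did not pass in mouse 3, with a median difference of -0.16 against 0.02 over all tested genes. Over all tested genes, 20.3% were higher and 17.5% lower. Under TPM, where these shares were 7.89% and 44.3%, the list gave 1 higher and 6 lower, and with the length trend removed 3 higher and 2 lower. Oxsr1 was measured at 11.3 to 13.0 FPKM in the 6 libraries of mice 1 and 2 and at 18.4 and 18.1 FPKM in mouse 3. Its difference of 0.58 ± 0.0684 (adjusted p = 0.00183, limma) also passed under TPM (0.32, adjusted p = 0.0128) and with the length trend removed (0.71, adjusted p = 0.000631). Stk39, at 27.4 ± 1.67 FPKM on average, differed by -0.15 (adjusted p = 0.151), and by -0.45 under TPM (adjusted p = 0.00261).

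Among the upstream kinases, Wnk1 (25.2 FPKM) exceeded Wnk2 (12.1), Wnk3 (3.90) and Wnk4 (0.724). Wnk1 was higher in mouse 3 by 0.26 on the FPKM scale (adjusted p = 0.0390), and by 0.54 with the length trend removed (adjusted p = 0.00114), but not under TPM (-0.03, adjusted p = 0.806). Wnk2 and Wnk3 did not pass on the FPKM scale (-0.26 and -0.18) and passed as lower under TPM (adjusted p = 0.00649 and 0.0043). The scaffold genes that activate these kinases divided, with Cab39 lower in mouse 3 (-0.34, adjusted p = 0.00774) and Cab39l higher (0.32, adjusted p = 0.0286; 0.04 under TPM). Cul3, a ubiquitin ligase subunit that acts with Klhl3 on WNK kinases, was lower (-0.36, adjusted p = 0.00857), and Klhl3 did not pass (-0.16, adjusted p = 0.281; 0.0189 under TPM). The lower values of Cab39 and Cul3 passed under all 3 scalings.

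The sodium pump builds the gradients on which all cotransporters run. Its beta subunits serve folding and delivery of the pump. Of their 3 genes, 1 was higher in mouse 3, 2 did not pass and 0 were lower by limma. Of all tested genes, 20.3% were higher and 17.5% lower. At an unadjusted p below 0.05, 2 of the 3 were higher and 1 was lower, where the shares over all tested genes were 26.2% and 22.7%. Under TPM the count was 0 higher and 1 lower, and with the length trend removed 1 higher and 1 lower. Atp1b3 was measured at 44.7 to 56.7 FPKM in mice 1 and 2 and at 65.6 and 80.2 FPKM in mouse 3. Its difference of 0.46 (adjusted p = 0.0138) did not pass under TPM (0.17, adjusted p = 0.153), and did with the length trend removed (0.30, adjusted p = 0.0167). Atp1b1, the highest of them at 553 ± 43.2 FPKM, and Atp1b2, at 222 ± 14.3 FPKM, differed by -0.19 and 0.16 without passing on the FPKM scale. Atp1b1 passed as lower under TPM (-0.49, adjusted p = 0.00246) and with the length trend removed (-0.22, adjusted p = 0.0315).

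Of 10 genes for other anion routes, 4 were lower, 6 did not pass and 0 were higher in mouse 3 on the FPKM scale by limma. Of all tested genes, 17.5% were lower and 20.3% higher. At an unadjusted p below 0.05, 4 of the 10 were lower and 0 higher, where the shares over all tested genes were 22.7% and 26.2%. The median difference of the 10 genes was -0.23. The 4 were Slc4a10 (-0.67, adjusted p = 0.00255) and Slc4a8 (-0.55, adjusted p = 0.011), which encode sodium-driven bicarbonate transporters of neurons, the anion exchanger Slc4a3 (-0.40, adjusted p = 0.0167), and Lrrc8b, a subunit of the volume-regulated anion channel (-0.25, adjusted p = 0.0286). They were lower under all 3 scalings, and under TPM 10 of 10 passed as lower, where 44.3% of all tested genes did and their median difference was -0.26. Slc4a10 was measured at 42.3 to 48.6 FPKM in mice 1 and 2 and at 31.5 and 25.9 FPKM in mouse 3. Clcn3, Slc4a2 and Lrrc8a, which encodes the required channel subunit, differed by at most 0.04 on the FPKM scale. Clcn2, a chloride channel gene, and the channel subunit genes Lrrc8c and Lrrc8d differed by -0.25, -0.19 and -0.21 without passing.

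The KCC2 partner and regulator genes gave 0 calls among 4 tested by limma, where 20.3% of all tested genes were higher and 17.5% lower. At an unadjusted p below 0.05, 1 of the 4 was lower and 0 higher, where the shares over all tested genes were 22.7% and 26.2%. The 4 were Neto2, an auxiliary subunit of kainate receptors (-0.18, adjusted p = 0.118), the kainate receptor subunit gene Grik2 (-0.19, adjusted p = 0.0581), Arhgef7 (-0.08, adjusted p = 0.507) and the transcription factor gene Egr4 (-0.42 ± 0.199, adjusted p = 0.127). Under TPM, 4 of 4 passed as lower, as did 44.3% of all tested genes, and with the length trend removed Egr4 alone passed (-0.52, adjusted p = 0.044). Rest, a repressor of neuronal genes, was below the tested range at 0.911 ± 0.0722 FPKM, and Epb41l1 was not found under that symbol. Of the 4 other Slc12 genes set beside them, Slc12a9 alone was in the tested range, and it differed by -0.28 (adjusted p = 0.136), or by -0.59 under TPM (adjusted p = 0.0116), where the median of all genes was negative.

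**Figure D5:**
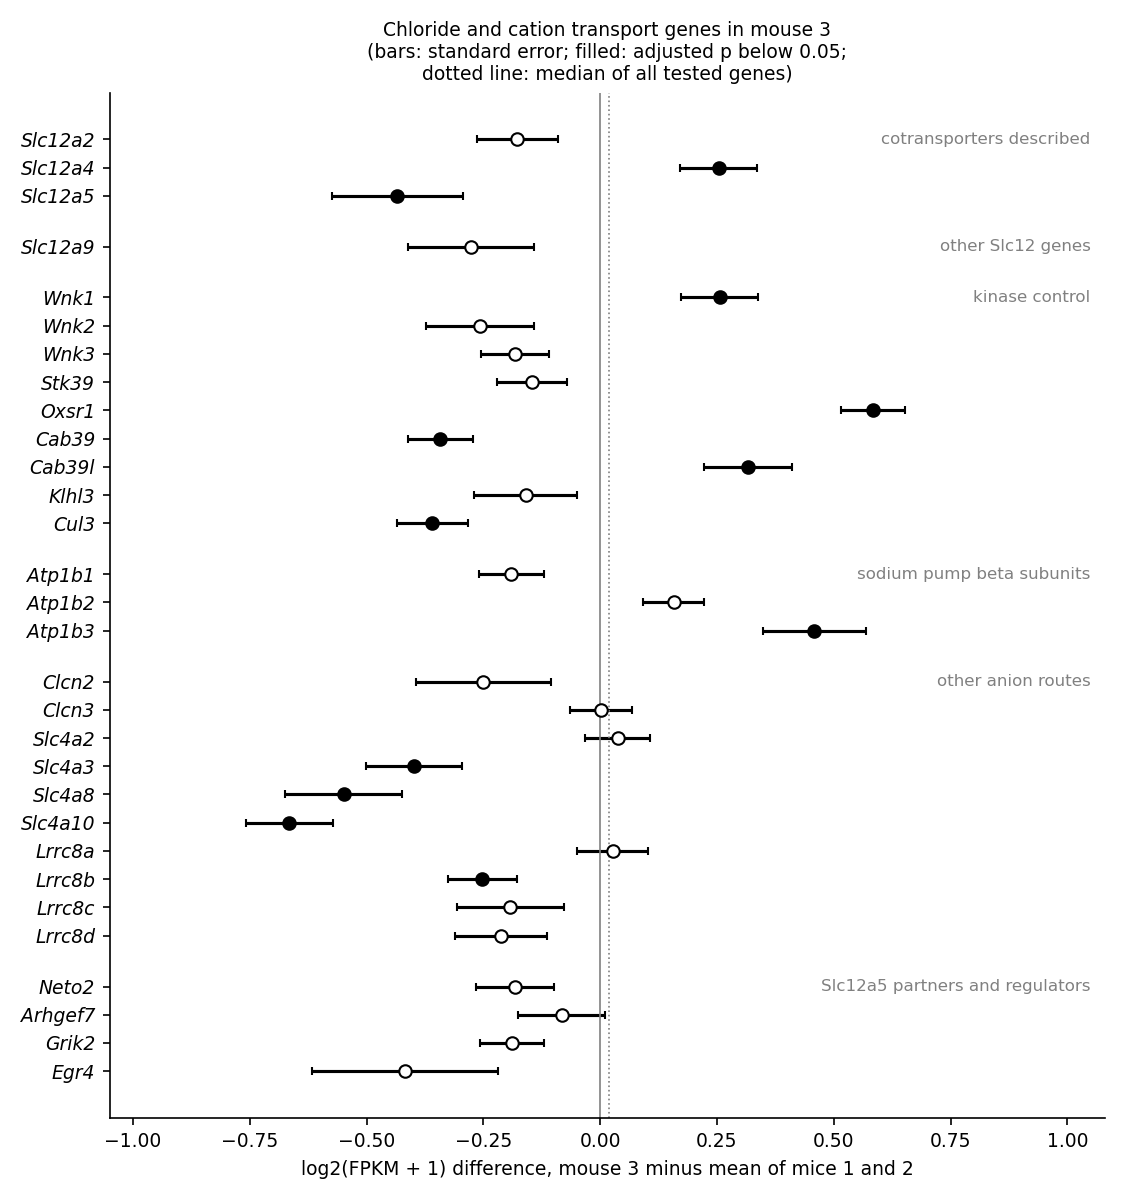
Difference of mouse 3 from the mean of mice 1 and 2 in log2(FPKM + 1) (horizontal axis) for the tested genes of each list (vertical axis); bars are standard errors, filled points passed an adjusted p of 0.05 and the dotted line is the median of all tested genes, 0.02. Slc12a4 lies to the right and Slc12a5 to the left, and the kinase list holds called genes on both sides.

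The genes whose log2(FPKM + 1) followed each cotransporter most closely over the 8 libraries are given as a description, since the libraries share their mouse, depth and length trend. For Slc12a5 these were Rapgefl1 (Pearson's r = 0.992), Terf2ip (0.991) and Mast3 (0.99). For Slc12a2 they were Ankrd11 (0.981), Kdm6b (0.978) and Thsd4 (0.974). For Slc12a4 they were Zfp523 (0.974), Spag6 (0.967) and Nbl1 (0.967), and for Slc12a7 Pigl (0.949), Zfp451 (0.929) and Afap1 (0.916). Mast3 was also among the 3 closest to Slc12a5 under TPM (0.997), but not with the length trend removed.

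Among the 4 genes themselves, Slc12a2 and Slc12a5 correlated over the 8 libraries with r = 0.641, and Slc12a2 and Slc12a4 with r = -0.607. With the length trend removed, the first became -0.454 and the second 0.0328, so that neither sign was kept. Slc12a4 and Slc12a5 had r = -0.265, which was 0.35 under TPM and -0.387 with the trend removed. No pair kept a common direction under all scalings for which it was computed, other than Slc12a2 with Slc12a7 and Slc12a5 with Slc12a7 (0.621 and 0.524 for FPKM, 0.863 and 0.778 for TPM), for which the trend was not removed because Slc12a7 was not tested.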

How the data were processed

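RNA was extracted from 3 whole brains with the RNAqueous Micro kit, and Kapa mRNA HyperPrep libraries were read on an Illumina NextSeq500. The submitters' processing notes name TopHat, Cufflinks and the mm10 build, without versions. Read length and strand setting are not given in the sources used here. The authors deposited FPKM per RefSeq transcript for 34535 transcripts, with confidence bounds, a status (8 FAIL values, 0 in the cotransporter genes) and coverage, a signal per base. Groups are the mice named in the labels.

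FPKM values are not counts, so limma (3.58.1, R 4.3.3) was run on log2(FPKM + 1), with a pseudocount of 1, over 12990 genes whose mean reached 1 FPKM. P-values were adjusted by Benjamini-Hochberg over these genes and called at 0.05. FPKM bounds are the authors' estimates. No counting interval was computed, because counts per gene were not used. The depth of 1.31 to 2.02 gigabases per library sets the precision of low genes. TPM was computed from FPKM, and the length trend was removed by lowess (span 0.3, statsmodels 0.14.6). Ratios were tested by exact permutation.

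The members and gene lists were chosen with earlier results of these data known. The text names the 4 genes, every gene of the lists, except some that are not reported here, and the 3 genes of highest Pearson's r with each member. GENCODE M21 exons and RefSeq promoter windows (GRCm38.p6, described here for 3 of the 4 genes) gave annotation and sequence. Alternatives were another pseudocount, no filter, TPM, length trend removal, the highest transcript, a replicate block and leaving out each library.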

Additional observations from a re-analysis of the deposited data

Results flagged for a closer look

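Of 37 measures of the cotransporter and list genes, 3 had a library whose gap to its nearest neighbour exceeded Dixon's limit for 8 libraries, where chance gives about 1 in 20. None of the 4 cotransporter genes was among them. Slc12a8 was low in library 3 of mouse 2, at 0.332 FPKM, with 0.487 FPKM next. Wnk1 was high in library 1 of mouse 3, at 30.9 FPKM, with 26.0 FPKM next. Cab39l was high in library 2 of mouse 3, at 16.3 FPKM, with 13.3 FPKM next.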

How the results depend on the processing

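Of 188 alternative values computed for the results, the direction and the side of the threshold, or the value, were kept in 135. The count of genes differing between mice by limma, 3309, was 5506 under TPM, 2175 with the highest transcript only, and 126 to 3857 with single libraries left out, the lowest without library 2 of mouse 3. The count for mouse 3 against mice 1 and 2, 4920, was 1504 to 5497 with single libraries left out, again lowest without library 2 of mouse 3. Its division into 2643 higher and 2277 lower genes became 1025 and 5760 under TPM and 2796 and 1768 with the replicate block. The difference of Slc12a2 was -0.48 under TPM, changed sign to 0.024 with the length trend removed, and was -0.28 to -0.070 with libraries left out. That of Slc12a4 was 0.0023 under TPM, 0.092 with the highest transcript only and 0.18 to 0.33 with libraries left out. That of Slc12a5 did not pass without the filter on low values or with the highest transcript only (-0.43 in both) or with the length trend removed (-0.25), and was -0.69 to -0.18 with libraries left out. The cause of these changes was not tested.

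Under the replicate block, neither Slc12a4 (0.26) nor Slc12a5 (-0.38) passed, and the counts were 3000 between mice and 4564 for mouse 3. Same-numbered libraries had deviations that correlated by 0.00136 to 0.106, over 0.1 in 1 of 7 pairs, and different-numbered ones by -0.135 to 0.0653. The labels do not say whether same-numbered libraries share a preparation, and this was not tested. Mean levels in TPM were 188 for Slc12a5, 52.3 for Slc12a2, 14.8 for Slc12a4 and 2.84 for Slc12a7, in the same order. With single libraries left out, the ratio of Slc12a5 to Slc12a2 was 3.46 to 3.69. The ratios added after seeing the data were 12.4 to 13.1 for Slc12a5 to Slc12a4 and 3.43 to 3.63 for Slc12a2 to Slc12a4, the latter 3.85 with the highest transcript only. Of the 3 genes closest to each cotransporter, TPM and trend removal kept 1 and 0 for Slc12a2, 2 and 1 for Slc12a4, and 1 and 0 for Slc12a5. Slc12a7 was read least deeply, at 1.58 to 2.56 reads per base for its transcript, against 6.99 to 12.9 for the main transcript of Slc12a4.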
